A study of Mus musculus with 6 samples.

Results

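The peaks described here lie near the genes of the epidermal growth factor (EGF) receptor family and its ligands: the receptors Egfr, Erbb2, Erbb3 and Erbb4 and the ligands Areg, Ereg, Hbegf, Tgfa, Btc and Nrg1. Members were all peaks whose nearest annotated transcription start site (TSS) belonged to 1 of these 10 genes and lay within 50 kb. The rule found 49 peaks of 156733, at 7 genes: 12 receptor peaks (Egfr 2, Erbb2 2, Erbb3 8) and 37 ligand peaks (Areg 12, Tgfa 11, Hbegf 8, Btc 6). No peak of the table used here carried the name Erbb4, Ereg or Nrg1, and these genes are described through peaks inside their RefSeq spans. Open chromatin was profiled by ATAC-seq, which reads where a transposase can reach and cut the DNA, in organoids grown from small-intestinal epithelium. Such cultures contain crypt stem cells and the mature cell types they form, and the libraries are bulk, so fewer open cells of a type and less accessibility per cell cannot be told apart. The aged group was 3 libraries from C57BL/6JRj mice aged 20 to 22 months, and the young group 3 libraries from mice of the same strain aged 2 to 3 months. No treatment was given to either group, and both were cultured for 3 to 5 weeks. Replicates 1, 2 and 3 of each age were harvested at passage 4, 3 and 2. No label states that libraries within an age group derive from different mice, so p-values measure the spread between these libraries, which may be technical.

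EGF family ligands are made as membrane proteins, are shed by proteases, and bind receptor tyrosine kinases that pair with each other and signal through the RAS-MAPK and PI3K pathways. Areg, Tgfa and EGF itself bind Egfr; Hbegf, Btc and Ereg bind both Egfr and Erbb4; Nrg1 binds Erbb3 and Erbb4. Erbb2 has no known ligand of its own and serves as a partner for the others, and Erbb3 has a weak kinase and also works in pairs. In the intestinal crypt this signalling drives the division of stem and progenitor cells, and organoid media usually contain EGF; the medium of these cultures is not given in the labels.

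Libraries held 21687816 to 26093521 counts in peaks in the aged group and 7278161, 25901670 and 19208483 in young replicates 1 to 3. The member peaks took 0.0576% ± 0.0008 of counts in aged and 0.0581% ± 0.0020 in young libraries (SD, n = 3 each). Values per library are CPM, peak counts divided by the library size and put on a common scale, with library sizes adjusted by TMM, a scaling that evens out differences in composition. CPM per kb of peak is used wherever levels of different peaks are compared. Rankings of peaks below thus depend on the called width of each peak as well as on its counts. As a check of the labelled tissue, 13 of 16 epithelial marker genes had a promoter peak, with summed levels of 412 to 425 CPM in aged and 385 to 434 CPM in young libraries. Promoter peaks were found for 3 of 8 immune markers (1.86 to 2.37 CPM summed in aged, 2.53 to 2.91 in young) and 4 of 8 stromal, endothelial and neural markers (22.9 to 27.8 CPM in aged, 19.7 to 24.9 in young). Among the genes with none were Ptprc, Cd3e, Csf1r, Itgam, Col3a1, Acta2, Pecam1 and Cdh5, and the epithelial genes Vil1, Muc2 and Dclk1. Promoter peaks were looked up by gene name within 1 kb of the annotated start. A start peak that carries another gene's name, as at Erbb2 and Ereg, is missed, so having none does not show a closed promoter. The part of these cell types in the results below was not tested.

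Promoter sequence was read from RefSeq (GRCm38.p6) for the 6 family genes with an entry. The windows are the 250 bases before the RefSeq start, and 5 of the 6 overlapped a consensus peak, against 48.6% of 32851 such windows of all genes. The window of Erbb4 was the exception. Shown are the windows of the ligands Areg and Tgfa and the receptor Egfr, which lay in open peaks, and that of Erbb4, which lay in none. Capitals mark matches, on either strand, to short motifs. The AP-1 motif was searched as TGANTCA. The cyclic AMP response element (CRE) was searched as TGACGTCA. The motif of SP and KLF factors was searched as GGGCGG. The ETS family motif was taken as CCGGAAG. For the TATA box the letters were TATAAA. For TCF factors the letters were CTTTGAT. For HNF4 the letters were CAAAGTCCA.
Areg, plus strand, chr5:91139349-91139598: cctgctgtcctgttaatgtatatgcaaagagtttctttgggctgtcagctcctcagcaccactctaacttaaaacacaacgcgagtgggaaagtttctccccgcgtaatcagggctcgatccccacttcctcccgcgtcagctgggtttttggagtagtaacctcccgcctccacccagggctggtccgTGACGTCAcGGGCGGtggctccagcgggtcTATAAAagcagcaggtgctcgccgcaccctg
Tgfa, plus strand, chr6:86194972-86195221: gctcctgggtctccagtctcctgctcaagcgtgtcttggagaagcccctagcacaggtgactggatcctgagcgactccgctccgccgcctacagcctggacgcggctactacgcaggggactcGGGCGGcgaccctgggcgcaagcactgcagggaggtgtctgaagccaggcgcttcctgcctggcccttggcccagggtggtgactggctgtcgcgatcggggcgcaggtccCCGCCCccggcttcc
Egfr, plus strand, chr11:16751953-16752202: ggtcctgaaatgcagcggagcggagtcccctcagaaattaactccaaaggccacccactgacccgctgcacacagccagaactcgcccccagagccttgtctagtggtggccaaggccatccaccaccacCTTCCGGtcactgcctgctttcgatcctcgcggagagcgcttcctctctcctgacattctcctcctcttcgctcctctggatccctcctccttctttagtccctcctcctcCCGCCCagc
Erbb4, minus strand, chr1:69108060-69108309: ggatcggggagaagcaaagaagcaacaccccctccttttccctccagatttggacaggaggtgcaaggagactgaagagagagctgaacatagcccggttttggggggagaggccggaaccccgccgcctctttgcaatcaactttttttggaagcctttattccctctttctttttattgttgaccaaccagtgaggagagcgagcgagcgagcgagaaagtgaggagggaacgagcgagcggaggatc
The Areg window held 1 match each to the CRE, the SP and KLF motif and the TATA box. Of all windows, 1.5% held the CRE, 32.7% the SP and KLF motif and 12.4% the TATA box. Tgfa held the SP and KLF motif at 2 places, and Egfr held 1 match to it and 1 to the ETS motif, which 6.9% of all windows held. The Erbb4 window held no match to any of the motifs, and neither did those of Erbb2 and Btc. The motifs of AP-1 (6.7% of all windows), TCF (3.2%) and HNF4 (0.4%) were matched in none of the 6. Guanine and cytosine made up 57.2% of the Areg window, 69.2% of Tgfa, 60.8% of Egfr, 66.0% of Erbb2 and 59.6% of Btc, against a median of 60.0% over all windows with a peak. The Erbb4 window, without a peak, was at 54%, above the median of 46.4% over all windows without one. A match of letters is a description and not a binding site.

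Accessibility per kb of peak at the gene starts spanned a wide range and ran in the same order in most libraries. The start of Hbegf, the heparin-binding ligand, was the most open at 64.2 ± 2.39 CPM per kb (SD over the 6 libraries). It was followed by Btc at 43.3 ± 1.83, Tgfa at 40.3 ± 3.50, Erbb2 at 36.8 ± 3.13, Erbb3 at 29.8 ± 1.49, Areg at 24.3 ± 1.42 and Egfr at 20.2 ± 1.15 CPM per kb. Ereg stood far lower at 4.14 ± 0.84, and the peak nearest the Erbb4 start held 1.14 ± 0.89 CPM per kb. Ranges over libraries overlapped between Btc and Tgfa, between Tgfa and Erbb2 and between Erbb2 and Erbb3, so these neighbours do not differ beyond their spread as groups of values, although within libraries the order held in 6, 5 and 6 of 6. Ranges did not overlap between the other neighbours. The order depends on peak width, which was 590 bp at Hbegf and 1709 bp at Egfr. In CPM, Tgfa (means of 45.2 aged and 39.7 young) and Btc (40.4 and 38.0) stood above Hbegf (38.5 and 37.2). Egfr (35.0 and 34.1) then stood above Erbb2 (25.5 and 23.7), Areg (22.9 and 22.0) and Erbb3 (17.9 and 18.3). The Hbegf start lay above 97.3% of all tested peaks in CPM per kb, the Egfr start above 78.8% and the Ereg start above 22.9%. Apart from Erbb4, each of these peaks holds the RefSeq start of its gene. The Erbb2, Ereg and Erbb4 peaks carry other gene names in the annotation.

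**Figure D1:**
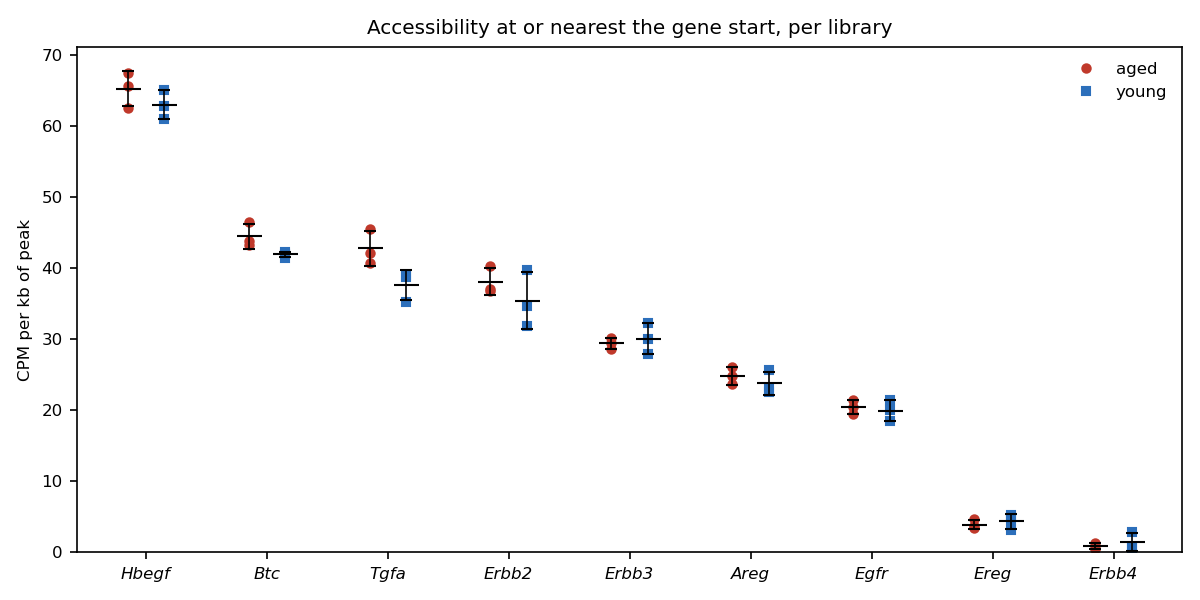
Accessibility in CPM per kb of peak (vertical axis) at the start of 9 family genes, or at the peak nearest to it for Erbb4, with aged libraries as circles on the left and young libraries as squares on the right; black bars are the mean and SD of 3 libraries. The Hbegf start, at 61.1 to 67.6 CPM per kb, lies above all others, and Ereg and Erbb4 lie lowest.

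Of the 49 member peaks 46 passed the filter on low counts, and edgeR's quasi-likelihood test called 0 of them between aged and young organoids at an adjusted p under 0.05, against 1.13% of all 132055 tested peaks (1491 calls). An unadjusted p under 0.05 was reached by 1 member (2.17%, against 9.71% of all tested peaks), and DESeq2 also called 0, with 0 unadjusted, leaving 2 without an adjusted p. Log2 fold changes, aged over young, ran between -0.50 and 0.51, with a median of -0.02 for members and -0.01 for all tested peaks. Of the 46, 20 were positive and 26 negative, and 34 lay within 0.2 of zero. The 95% interval lay within 1 log2 unit of zero, a 2-fold change, for 39 of the 46, and within 0.5 for 30. The 3 aged and 3 young values did not overlap at 6 peaks (13.0%, against 14.7% of all tested peaks). The sign was the same in all 3 same-numbered pairs at 17 peaks (37.0%, against 33.6%), 8 with aged higher and 9 with aged lower. These shares lie near the background and are no result about the family. The log2 range among young libraries was wider than among aged ones at 29 of the 46 (63.0%, against 64.1% of all tested peaks).

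**Figure D2:**
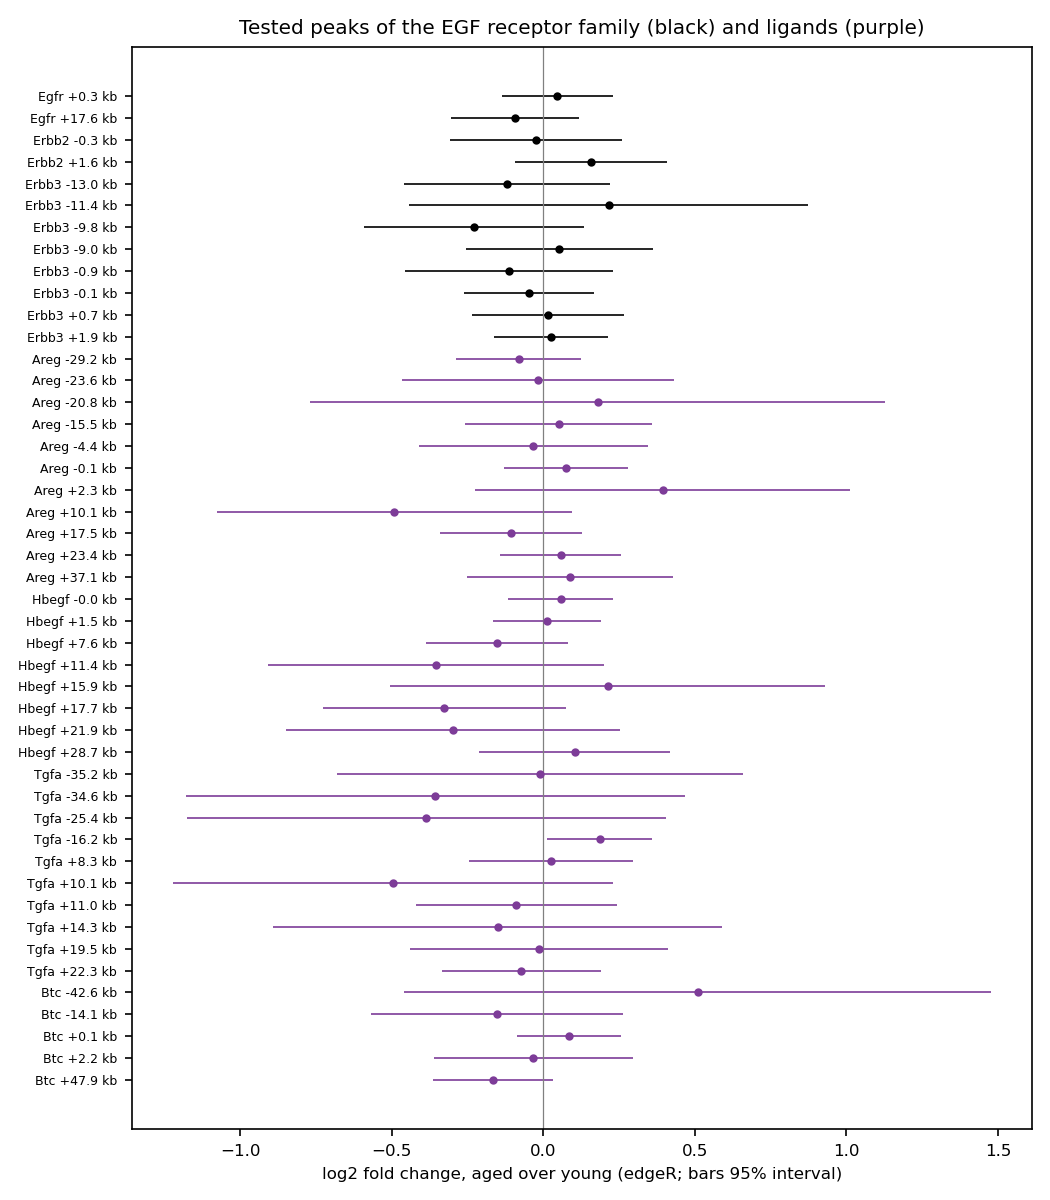
Log2 fold change, aged over young (horizontal axis), of the 46 tested member peaks, named by gene and distance from the annotated start, with 95% intervals from edgeR; receptor peaks are black and ligand peaks purple. Point values run between -0.50 and 0.51, and at 45 of the 46 the interval spans zero, the exception being the Tgfa peak at -16.2 kb.

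Egfr, the receptor of most of these ligands, had a start peak that differed little between the ages. It held 33.3, 35.0 and 36.7 CPM in aged replicates 1 to 3 and 36.6, 34.2 and 31.6 CPM in young replicates 1 to 3. The young values span those of aged replicates 1 and 2, and the log2 fold change was 0.05 (SE 0.09; edgeR adjusted p = 0.928). A second member peak, 17.6 kb into the first intron, held 19.5, 19.8 and 19.4 CPM in aged and 23.4, 20.3 and 19.7 CPM in young libraries (log2 -0.09; adjusted p = 0.848). The RefSeq span of Egfr (161.7 kb) held 15 further peaks that the annotation names for Egfros or Eldr. Among them was the most open peak of all those near the family, in the first intron of Egfr at chr11:16800551-16801051 (GRCm38), at 151 CPM per kb, above 99.9% of tested peaks. It held 78.5, 75.7 and 71.9 CPM in aged and 85.8, 63.4 and 78.1 CPM in young libraries (log2 0.01, SE 0.09; adjusted p = 0.994). The young range encloses the aged one. The 15 peaks had log2 fold changes of -0.45 to 0.37 with a median of 0.02, and none of them was called in edgeR, with 0 at an unadjusted p under 0.05.

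Erbb2, the partner receptor without a ligand, was open at its RefSeq start (98412256 to 98412924 on chromosome 11), a peak annotated to Gm25048. That peak held 24.6, 24.9 and 26.9 CPM in aged and 21.3, 26.6 and 23.3 CPM in young libraries, with overlapping values (log2 0.08, SE 0.10; adjusted p = 0.863). The member peaks of Erbb2 lie inside the gene, around a start that the annotation places within it. The nearer held 11.4, 8.46 and 11.0 CPM in aged and 11.4, 9.76 and 10.7 CPM in young libraries, which overlap (log2 -0.02; adjusted p = 0.98). The other held 16.4, 13.9 and 13.2 CPM in aged and 13.1, 12.1 and 14.0 CPM in young libraries (log2 0.16, SE 0.12; adjusted p = 0.759). Aged replicate 1 is the highest of the 6 at this peak, while the other values overlap.

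Erbb3, a neuregulin receptor, had the most open member peak. This 183 bp peak in its first intron, 0.744 kb from the annotated start, reached 84.8 CPM per kb, above 98.8% of tested peaks. The next peak along that intron, 1.94 kb from the start, held 49.2, 43.8 and 48.0 CPM in aged and 49.6, 39.1 and 50.8 CPM in young libraries (log2 0.03, SE 0.09; adjusted p = 0.964). Replicate 2 was the lowest library of both ages there. The promoter peak held 17.9, 17.4 and 18.3 CPM in aged and 17.0, 19.6 and 18.3 CPM in young libraries (log2 -0.05; adjusted p = 0.941). The smallest unadjusted p of the gene was 0.208, at an intergenic peak 9.82 kb before the start, with 3.91, 3.33 and 3.57 CPM in aged and 3.93, 4.27 and 4.33 CPM in young libraries. All 3 aged values lie below the young ones, although aged and young replicate 1 nearly coincide, and the adjusted p was 0.756. Inside the gene, 4 more peaks named for the microRNA gene Mir6917 had log2 fold changes of -0.13 to 0.10.

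Erbb4, the receptor of Hbegf, Btc and Nrg1, had 2 peaks in a RefSeq span of 1076.7 kb, both under the filter on low counts. The peak nearest its start held counts of 5, 2 and 3 in aged and 1, 13 and 2 in young libraries. A peak in the first intron (69031865 to 69031999 on chromosome 1) held 1, 0 and 5 counts in aged and 6, 9 and 6 in young libraries. Without the filter its log2 fold change was -2.27 (SE 0.88; edgeR unadjusted p = 0.0113, adjusted p = 0.31), and aged replicate 3 lay next to the young values.

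Areg, the amphiregulin gene, had the most member peaks, and its most open ones lay outside the promoter. The peak 23.4 kb beyond the start reached 63.7 CPM per kb and that 29.2 kb before it 50.2, against 24.3 at the promoter. The promoter peak, which holds the window printed above, had 24.1, 22.9 and 21.9 CPM in aged and 23.7, 21.4 and 20.8 CPM in young libraries (log2 0.07, SE 0.10; adjusted p = 0.885). The values of the ages interleave, and in both the level was highest at passage 4. The peak at 23.4 kb held 29.5, 27.5 and 25.8 CPM in aged and 28.2, 23.9 and 27.9 CPM in young libraries (log2 0.06; adjusted p = 0.912). The peak at 29.2 kb before the start held 27.1, 26.8 and 24.3 CPM in aged and 30.0, 23.6 and 30.0 CPM in young libraries (log2 -0.08; adjusted p = 0.873). The smallest p of the gene belonged to a weak peak 10.1 kb past the start, with 1.09, 1.11 and 0.776 CPM in aged and 1.54, 1.25 and 1.48 CPM in young libraries (log2 -0.49, SE 0.29; edgeR adjusted p = 0.627). An intronic peak at 2.33 kb went the other way, at 1.14, 1.06 and 1.20 CPM in aged and 0.983, 0.794 and 0.897 CPM in young libraries (log2 0.39, SE 0.30; adjusted p = 0.753). The ages do not overlap at either of these weak peaks, and neither passed the test.

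Ereg, the epiregulin gene next to Areg on chromosome 5, lay in far less open chromatin. Its RefSeq span (91074617 to 91093649) held 5 peaks, all named for the transcript RP23-42K10.4. The one at the RefSeq start held 2.96, 2.68 and 3.69 CPM in aged and 2.53, 3.67 and 4.22 CPM in young libraries (log2 -0.22, SE 0.20; adjusted p = 0.802). A peak in the first intron held 2.77, 2.59 and 2.99 CPM in aged and 3.51, 3.22 and 3.38 CPM in young libraries. All aged values were lower there, but the difference did not pass the test (log2 -0.26, SE 0.19; adjusted p = 0.742). The last exon held 2.32, 1.11 and 1.90 CPM in aged and 0.842, 1.51 and 2.48 CPM in young libraries (log2 0.03; adjusted p = 0.989), and the remaining peaks were under the filter.

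Hbegf had a promoter peak of 38.8, 37.0 and 39.9 CPM in aged and 38.5, 36.1 and 37.1 CPM in young libraries (log2 0.06, SE 0.09; adjusted p = 0.9). A peak in the second intron was still higher, at 48.7, 44.5 and 47.8 CPM in aged and 49.0, 40.9 and 50.7 CPM in young libraries (log2 0.01; adjusted p = 0.983). At 64.2 and 70.9 CPM per kb these were the most open ligand peaks, and the ages overlap at both. The smallest p of the gene, 0.106, was at an intergenic peak 17.7 kb past the start, with 2.96, 3.37 and 2.91 CPM in aged and 3.09, 3.37 and 4.85 CPM in young libraries (log2 -0.33, SE 0.20; adjusted p = 0.646). Young replicate 3 alone lies apart from the rest there.

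Tgfa, the transforming growth factor alpha gene, held the 1 member peak with an unadjusted p under 0.05. It covers the RefSeq start window printed above (86194847 to 86195900 on chromosome 6), although the annotation places the Tgfa start 16.2 kb away. It held 44.4, 48.1 and 43.0 CPM in aged and 40.8, 41.2 and 37.1 CPM in young libraries. All 3 aged values lie above the young ones, with means of 45.2 ± 2.62 and 39.7 ± 2.24 CPM (SD, n = 3 each). The log2 fold change was 0.19 (SE 0.09), a fold of 1.14, and it did not pass the correction over all peaks (edgeR adjusted p = 0.46, and 0.212 to 0.931 over the processing alternatives). The other 9 tested Tgfa peaks had log2 fold changes of -0.50 to 0.02, and 8 of them were negative. The nearest member peak by distance lay 8.34 kb past the annotated start. It held 9.87, 9.61 and 9.74 CPM in aged and 10.4, 9.19 and 9.49 CPM in young libraries (log2 0.02, edgeR adjusted p = 0.979). The lowest of the 9, at 10.1 kb, held 0.773, 0.508 and 0.582 CPM in aged and 0.842, 0.832 and 0.949 CPM in young libraries (log2 -0.50, SE 0.36; adjusted p = 0.724). The ages do not overlap at that weak peak. Of 6 further peaks in the RefSeq span of Tgfa, named for Gm7545, 4 were tested, with log2 fold changes of -0.40 to 0.69 and adjusted p of at least 0.674.

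Btc, the betacellulin gene, had a promoter peak of 39.7, 42.2 and 39.2 CPM in aged and 37.6, 38.1 and 38.3 CPM in young libraries. The aged values lie above the young ones by a small margin (log2 0.08, SE 0.08; adjusted p = 0.826). Its most open peak, 47.9 kb past the start, reached 51.8 CPM per kb and held 28.7, 30.4 and 27.5 CPM in aged and 38.0, 30.5 and 30.1 CPM in young libraries. Young replicate 1 stands out there, and the log2 fold change was -0.17 (SE 0.10; edgeR adjusted p = 0.629). That peak was the member nearest inside the 50 kb limit, with a Tgfa peak at -44.8 kb (0.136, 0.554 and 0.349 CPM in aged; 0.281, 0.227 and 0.211 in young). Just outside lay a Btc peak at -54.2 kb, with 0.591, 0.693 and 0.738 CPM in aged and 0.702, 0.567 and 1.06 CPM in young libraries. A Tgfa peak, also at -54.2 kb, held 12.5, 13.6 and 12.7 CPM in aged and 11.2, 10.7 and 9.44 CPM in young libraries, with all 3 aged values above the young ones. The 3 members under the filter, of Areg, Btc and Tgfa, held 2 to 12 counts per library.

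**Figure D3:**
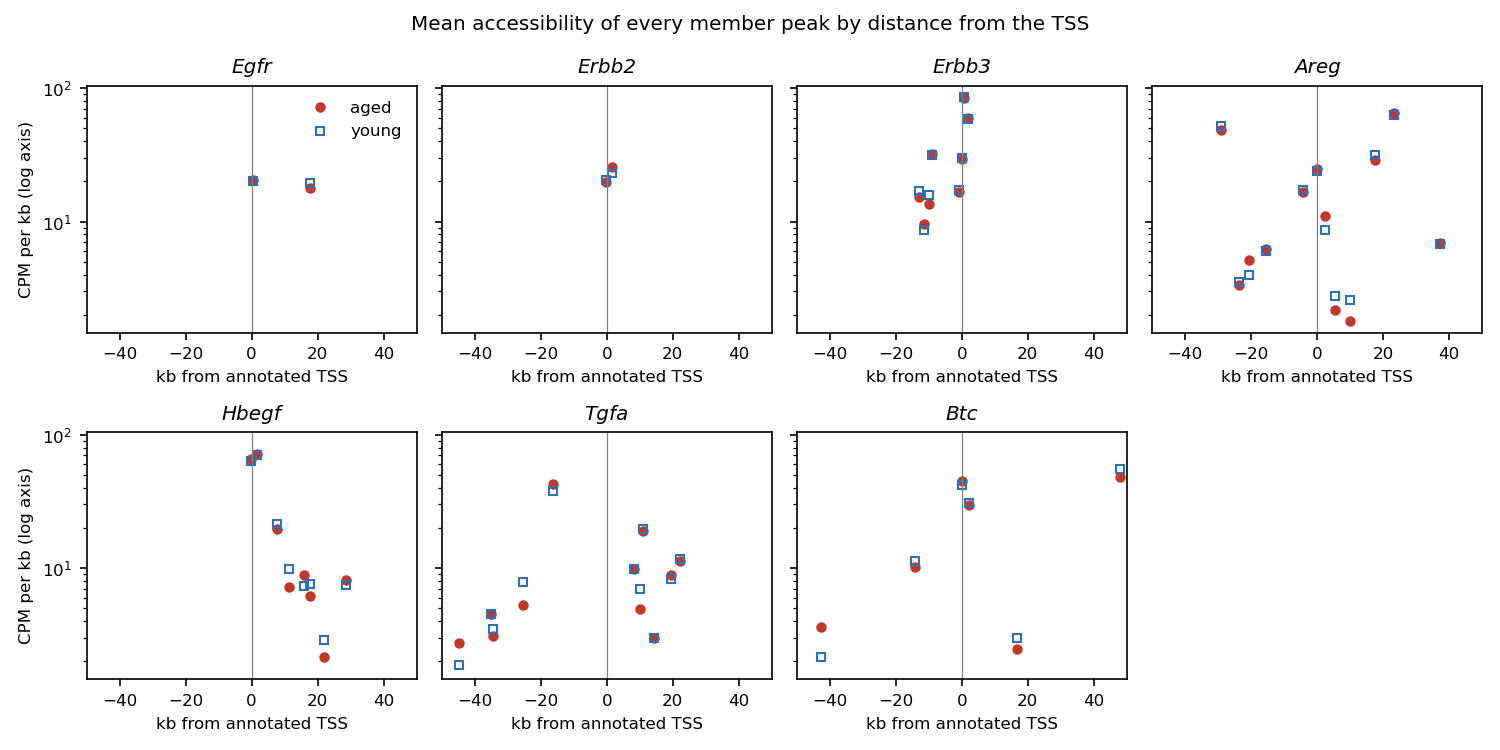
Mean accessibility in CPM per kb (vertical axis, log scale) of the 49 member peaks against distance from the annotated start in kb, by gene; filled circles are the mean of 3 aged libraries and open squares the mean of 3 young libraries. Circles and squares nearly coincide at the open peaks and separate at the weakest ones, and Areg and Btc have peaks far from the start that are more open than the promoter.

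Nrg1, the neuregulin that binds Erbb3 and Erbb4, had no peak at its start and 2 peaks in a RefSeq span of 1084.2 kb, both in the first exon of Gm26578. At the one tested (32009649 to 32009830 on chromosome 8) the counts were 3, 2 and 6 in aged and 4, 28 and 10 in young libraries, or 0.136, 0.0924 and 0.233 CPM in aged and 0.561, 1.06 and 0.527 CPM in young. The aged values lie below the young ones, and this was the 1 of 52 tested peaks in the RefSeq spans of the 10 genes that was called (log2 -2.25, SE 0.52; edgeR adjusted p = 0.018). Among all tested peaks 1.13% were called, so a count of 1 lies near the background and is no result about the family. The aged counts at the called peak are too low for the filter on low counts. It was thus tested only through the young libraries, where it is high, and was also called with no filter (edgeR adjusted p = 0.0172). The call was lost without young replicate 2 (adjusted p = 0.302), aged replicate 1 (0.101) or aged replicate 2 (0.109), over a range of 0.0109 to 0.302, and DESeq2 gave no adjusted p for it. Its neighbour, under the filter, held 8, 3 and 7 counts in aged and 2, 26 and 5 in young libraries.

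Summed over its member peaks, none of the 7 family genes with such peaks differed between the ages by more than a small fraction. Erbb4, Ereg and Nrg1 have no sum. The sums also leave out peaks in the gene spans that carry other names, among them the Erbb2 start peak and 15 Egfr peaks. Of 29256 genes with tested sums, edgeR called 408 (1.39%) and 0 of the 7 family genes, with 0 at an unadjusted p under 0.05. DESeq2 also called 0 of the 7, with 0 unadjusted. Areg had the largest sum, at 142, 134 and 128 CPM in aged and 146, 120 and 147 CPM in young libraries (fold 0.983, 95% interval 0.883 to 1.09). Hbegf had 127, 124 and 130 CPM in aged and 129, 118 and 140 CPM in young libraries (fold 0.985, 0.895 to 1.08). Erbb3 had 122, 107 and 120 CPM in aged and 122, 106 and 127 CPM in young libraries (fold 0.986, 0.889 to 1.09). At these genes the libraries of the ages overlap, and replicate 2 is the lowest young library. Tgfa was at 88.0 ± 5.22 CPM in aged and 83.6 ± 5.13 CPM in young libraries (SD, n = 3 each; fold 1.05, 0.952 to 1.16), with aged higher in 3 of 3 pairs, by 0.07 to 0.08 on the log2 scale. This sum includes the Tgfa peak at -16.2 kb described above. With peaks within 10 kb only, which leaves that peak out, the Tgfa sum was at log2 0.006 (edgeR adjusted p = 0.992). Btc was at 86.2 ± 4.32 in aged and 89.0 ± 3.99 CPM in young (fold 0.973, 0.887 to 1.07), Egfr at 59.9 ± 1.87 in aged and 61.1 ± 4.42 CPM in young (fold 0.989, 0.897 to 1.09) and Erbb2 at 27.2 ± 3.09 in aged and 26.1 ± 1.77 CPM in young (fold 1.05, 0.91 to 1.21). The edges of these 7 separate intervals ran between 0.883-fold and 1.21-fold. They rest on the spread between these libraries, which may be technical, and set no joint limit on the age difference. Adjusted p ran between 0.792 and 0.966 in edgeR.

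Passage was tested as a number beside age, and edgeR called 0 of the 46 members along it, against 0.00303% of all tested peaks (4 calls). An unadjusted p under 0.05 was reached by 2 members, against 5.27% of all tested peaks, and by 0 in DESeq2. They were the weak Areg peak at -20.8 kb (log2 -0.66 per passage, SE 0.30; edgeR adjusted p = 0.929) and the third-intron Hbegf peak (log2 -0.14 per passage, SE 0.07; edgeR adjusted p = 0.947). The Areg peak held 0.273, 0.554 and 0.738 CPM in aged and 0.140, 0.492 and 0.580 CPM in young libraries at passages 4, 3 and 2, lowest at passage 4 in both ages. The Hbegf peak held 15.4, 16.6 and 17.1 CPM in aged and 15.4, 17.3 and 21.0 CPM in young libraries at the same passages, again lowest at passage 4. Culture code and passage change together in the titles and cannot be told apart.

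**Figure D4:**
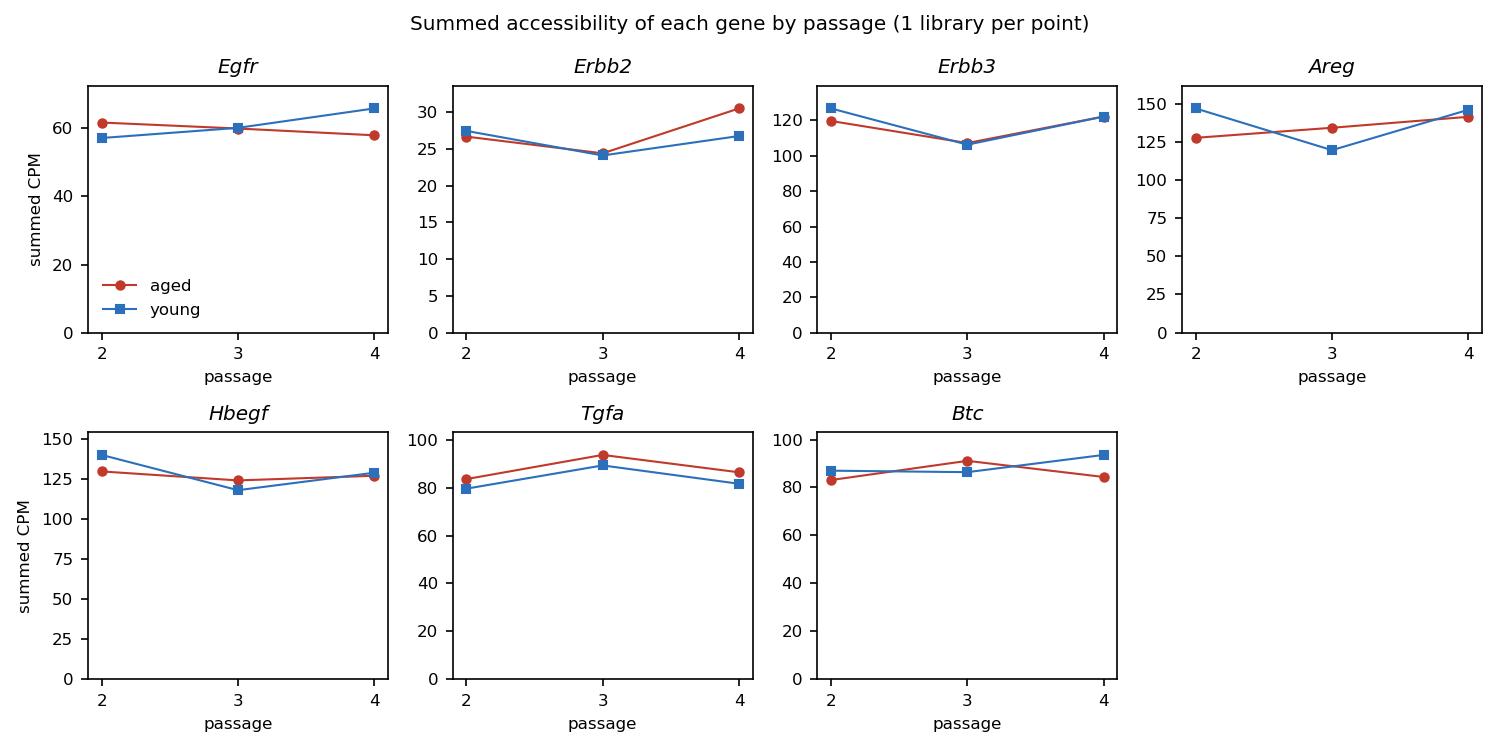
Summed CPM of the member peaks of each gene (vertical axis, from 0) against organoid passage, with 1 library per point, aged as circles and young as squares. The lines cross for most genes, while the aged Tgfa point lies slightly above the young one at each passage.

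Promoters of other genes of the pathway were looked at through a list of 53 genes. Of these, 39 had a peak of their own name within 1 kb of the annotated start, and 37 were tested. Start peaks under another gene's name were missed here too. In edgeR, 1 was called lower and 0 higher, with 3 at an unadjusted p under 0.05. Of all 14318 tested promoter peaks, taken 1 per gene, 1.49% were called and 1528 had an unadjusted p under 0.05. A count of 1 call lies near the background and is no result about the pathway. The median log2 fold change was 0.05 for the list and 0.03 for all promoter peaks, and 28 of 37 were positive, against 57.8% of all promoter peaks. The called promoter was that of Nrg3, a ligand of Erbb4, with 0.227, 0.185 and 0.155 CPM in aged and 1.12, 1.40 and 0.738 CPM in young libraries. The counts behind it were 5, 4 and 4 in aged and 8, 37 and 14 in young libraries, and the ages do not overlap (log2 -2.52, SE 0.45; edgeR adjusted p = 0.000991). The aged counts are too low for the filter on low counts, so this peak was tested only through the young libraries, where it is high. With no filter it was also called (edgeR adjusted p = 0.000198). The call was lost without young replicate 2 (adjusted p = 0.0643, range over the alternatives 9.81e-05 to 0.0643). Promoters of the other listed ligands did not pass the test, at log2 0.08 for Egf, -0.27 for Epgn, -0.08 for Nrg2 and 0.00 for Nrg4.

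Receptor inhibitors and shedding factors passed no test, with log2 fold changes of -0.02 to 0.20 over 6 tested inhibitors and 0.02 and 0.20 at Rhbdf1 and Rhbdf2, which guide the sheddase. Socs5, an inhibitor of receptor signalling, held 51.3, 50.6 and 53.5 CPM in aged and 44.4, 46.2 and 44.9 CPM in young libraries. The aged values lie above the young ones, but the adjusted p was 0.37 (log2 0.20, SE 0.08). Errfi1, a feedback inhibitor that binds the receptor kinase, was at log2 -0.02 and the ubiquitin ligase Cbl at 0.17. Of the 10 tested adaptor and RAS-MAPK promoters 9 were positive, against the same 57.8% of all promoter peaks, and 0 were called, with log2 -0.06 at the adaptor gene Shc1 and 0.14 at the docking protein gene Gab1. The 12 feedback and target promoters ran between -0.13 and 0.16, and both PI3K promoters, Akt2 and Pik3cb, were positive (0.06 and 0.17).

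**Figure D5:**
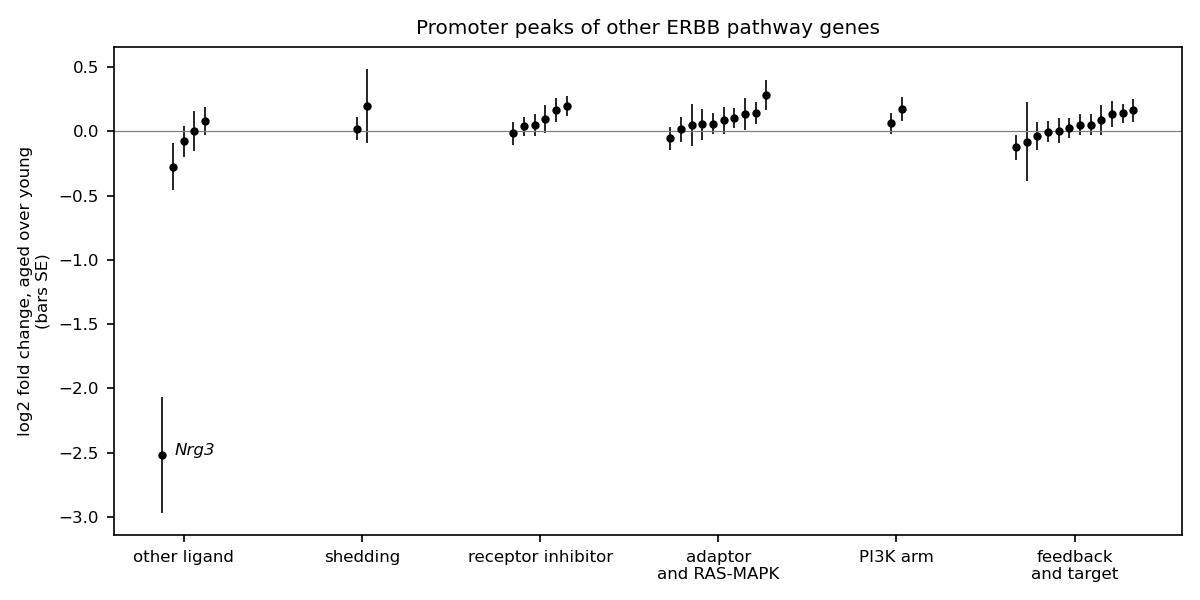
Log2 fold change, aged over young (vertical axis, bars SE), at 37 promoter peaks of other genes of the pathway, grouped by role along the horizontal axis. The Nrg3 promoter lies at -2.52, far below the other 36, which lie near zero. Its aged counts were 5, 4 and 4, and it was tested only through the young libraries, where it is high.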

How the data were processed

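Per the labels, 6 ATAC-seq libraries were made from organoids, 3 aged and 3 young. BWA 0.7.17-r1188, MACS2 2.2.7.1, featureCounts 2.0.1 and the build GRCm38 are named, without roles, per the submitters' processing notes. The deposited table gives raw counts per consensus peak; duplicate handling, the Tn5 offset and the counting of reads or fragments are not stated in these sources, and each could shift counts. No molecular identifiers are stated. The SE and intervals cover counting error and the spread between libraries, and counting error is largest in young replicate 1 (7278161 counts). Gene names and distances come from the deposited annotation, which gives 1 TSS per peak; its 1-based starts are printed. RefSeq spans and promoters are of GRCm38.p6.

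Aged was compared with young over all peaks in edgeR 4.0.16 (R 4.3.3): TMM factors, filterByExpr with a minimum count of 10, robust quasi-likelihood F test, Benjamini-Hochberg adjustment, called at 0.05. Gene sums and passage were fitted likewise. SE and 95% intervals were derived from the log2 fold change and F. DESeq2 1.42.0 and the other alternatives are given in the closing section. The fits were also run on simulated counts with large added changes, the same spread for all peaks and no pairing. That run cannot show how the fits handle differences as small as those of most peaks here. Same-numbered libraries share a culture code and passage in the titles and were taken as pairs; deviations from group means correlated at 0.058, 0.129 and 0.145, and 6 of 6 libraries correlated best with their own number. The main fit has no block.

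Members and lists were chosen with earlier results of these data known, and the RefSeq spans were added after the files were seen. The text names all 10 genes, each with the peak at its start and the one of smallest p, every called member, and, of the pathway list, called genes and the 3 smallest p, of which 1 gene is not reported here. Other peaks and pathway genes named were chosen after their values were seen.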

Additional observations from a re-analysis of the deposited data

How the results depend on the processing

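For member peaks 0 were called with RLE factors, library totals, no filter, DESeq2, the replicate block, libraries thinned to the shallowest and any 1 library left out. Gene sums of the family also gave 0 calls with RLE factors, library totals, DESeq2, the replicate block, peaks within 10 kb and any 1 library left out, and passage gave 0 with RLE factors, library totals, DESeq2 and thinning. Over all peaks the 1491 calls became 901 in DESeq2, 3523 with the replicate block, 657 after thinning and 830 to 1902 with 1 library left out (lowest without aged replicate 3). Over all gene sums the 408 calls became 939 with the replicate block and 224 to 723 with 1 library left out, and along passage the 4 calls became 0 in DESeq2. Of the pathway promoters 2 were called with the replicate block, 0 after thinning, where Nrg3 fell under the filter, and 1 with any 1 library left out, although without young replicate 2 Nrg3 itself was not called. The called peak in the Nrg1 span also fell under the filter after thinning, and the replicate block changed no call of a named peak or family gene with a fit in both. The cause of these shifts was not tested.

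Some differences near zero changed sign, none of them called. With sums within 10 kb, Egfr was at 0.03, Areg at 0.048 and Btc at 0.051 on the log2 scale. With 1 library left out the sums ran between -0.059 and 0.031 for Egfr, -0.021 and 0.139 for Erbb2, -0.098 and 0.042 for Erbb3, -0.122 and 0.037 for Areg and -0.088 and 0.05 for Hbegf. The Erbb2 member peak nearest the annotated start, which lies inside the gene and not at the RefSeq start, ran between -0.099 and 0.099. The promoter peaks ran between -0.085 and 0.009 for Erbb3 and -0.005 and 0.088 for Egfr. The Tgfa peak at 8.34 kb ran between -0.014 and 0.061. At weak peaks counts limit what can be seen: intervals beyond 1 log2 unit belong to 7 of the 46 members.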
